A study of Mus musculus with 4 samples.

Results

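The cholesterol and fatty acid synthesis genes described here are 30 genes of the pathway from acetyl-CoA to sterols and to long-chain fatty acids, with the regulators that switch it. They were chosen by name: a member is any non-control probe whose gene name in the array files is one of the 30 symbols, which gave 43 of 39429 probes and 30 of 31893 gene names. They were measured in total RNA of 3D engineered muscle from mouse cells, a cultured tissue of contractile fibres, on 4 single-colour Agilent arrays. One array each represented tissue without acute EPS at 0 min, tissue without acute EPS at 5 h, tissue directly after 30 min of acute EPS (0 min) and tissue 5 h after 30 min of acute EPS. EPS is read as electrical pulse stimulation, a current that makes cultured muscle contract, and tissue without it was the negative control at each time. Strain, cell source, culture medium, any pooling of tissues and the age of the cultures are not given in the sources used here, and the list does not hold every enzyme of the pathway. Since each group had a single array, the spread between tissues is unknown, no test was run and every difference describes these 4 arrays. Comparisons of EPS with no EPS share no array with each other, nor do comparisons of 5 h with 0 min, but each array enters 1 comparison of each kind.

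The level of a gene is the log2 of its processed signal minus the 75th percentile of that signal on the same array, and a difference is a level minus another level of the same probe. All 30 genes were well above background on all 4 arrays, so no member was lost to the filter on dim probes. The 75th percentile of the signal ranged from 1093 to 1492 over the arrays. Probes printed 10 times on each array gave the spot error: the standard deviation of a difference between spots had a median of 0.04 to 0.06 and a 95th percentile of 0.19 to 0.26 across the EPS and time comparisons. That pooled 95th percentile is set by probes with a mean level under -4, where no member lies; at levels from -4 upward it was between 0.06 and 0.16. A difference inside the pooled value can therefore exceed the spot error of its own level. The error that the scanner software itself assigns to a member's difference was larger, from 0.20 to 0.22. Neither error includes the spread between tissues.

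All 14 skeletal muscle markers (among them Acta1, Myog and Myh8) were well above background on every array, and so were 6 of 7 fibroblast markers. Of 7 adipocyte markers, 5 (Adipoq, Cfd, Cidec, Lep and Retn) were dim on all arrays, Plin1 was well above background only with EPS at 0 min, and Fabp4 was on all 4. The labelling protocol names leukocytes as the source of the RNA; Ptprc, the common leukocyte antigen, was dim on all arrays, while Cd68, Cd3e, Itgam and Csf1r were on all 4. The summed signal of each list, in units of the array's 75th percentile, ranged from 865 to 1137 for muscle, from 224 to 307 for fibroblast, from 0.06 to 0.19 for adipocyte and from 6.43 to 8.41 for leukocyte markers. The muscle and fibroblast sums were lowest with EPS at 5 h and highest with EPS at 0 min, as was the adipocyte sum, and the leukocyte sum was highest in unstimulated tissue at 0 min. Between 0 min and 5 h the median difference of the muscle markers was -0.12 without EPS and -0.41 with EPS, and that of the fibroblast markers -0.13 and -0.60. The part of these other cells in the members' differences was not tested. In bulk tissue, fewer cells of a type and less RNA per cell cannot be told apart.

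Cells make cholesterol from acetyl-CoA through mevalonate, farnesyl diphosphate, squalene and lanosterol, and fatty acids by carboxylating acetyl-CoA and extending the chain on fatty acid synthase. Both routes are switched by SREBP transcription factors, encoded by Srebf1 and Srebf2, which are held in the endoplasmic reticulum by Scap and the Insig proteins while sterols are plentiful. When sterols are scarce, Scap carries the precursors to the Golgi, proteases release the active factor, and it turns on the synthesis enzymes and Insig1. In muscle these lipids serve, among other uses, the membranes of growing and fusing fibres.

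**Figure D1:**
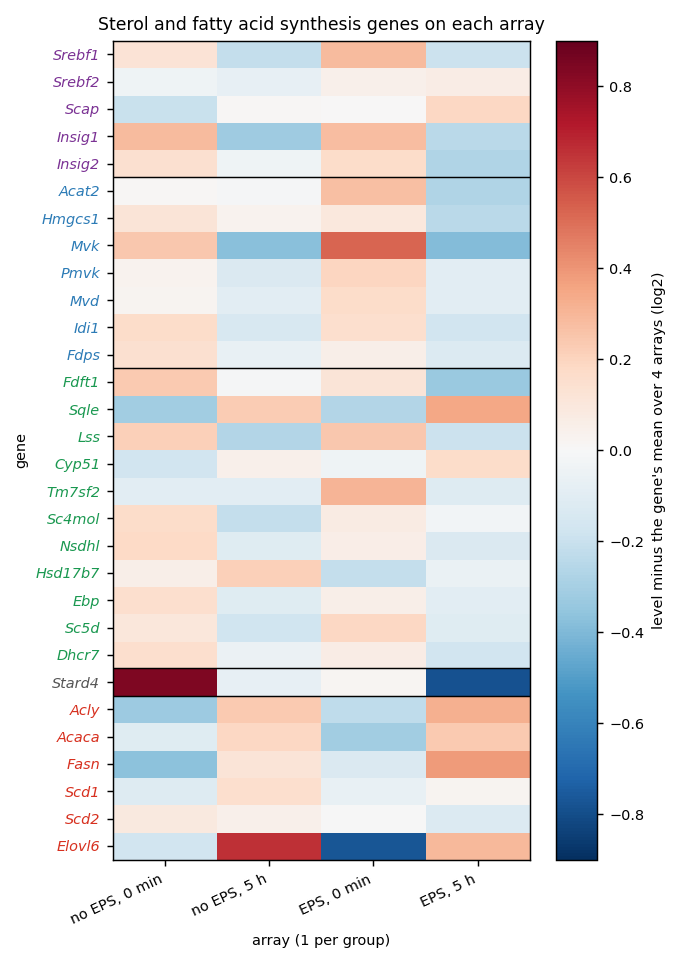
Level of each of the 30 genes on each array minus the gene's own mean over the 4 arrays (log2, colour), with arrays in columns and genes in rows grouped by role (label colours, from top: regulators, mevalonate branch, squalene and sterol branch, transfer, fatty acid branch). Stard4 stands high without EPS at 0 min and low with EPS at 5 h. Elovl6, Acly, Fasn and Sqle are among the 9 of 30 members higher at 5 h both without and with EPS (34.7 percent of all genes).

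Few of these genes differed between stimulated and unstimulated tissue at either time. Directly after EPS, 0 of 30 members differed by 2-fold or more from unstimulated tissue, against 1.34 percent of the 18589 genes measured on both arrays. At a smaller size of 1.5-fold, 0 were higher (2.01 percent of all genes) and 2 lower (3.34 percent of all genes), Stard4 and Elovl6. Neither kept that size under every alternative: normexp background correction took both under 1.5-fold, median centring also Elovl6 and the mean of probes also Stard4. The median difference over the 30 was 0.03, against 0.02 over all genes, with 16 members above 0 (54.5 percent of all genes) and 14 below (45.5 percent). At 5 h, again 0 of 30 reached 2-fold (1.21 percent of 18542 genes) and only Stard4 reached 1.5-fold, downward (2.06 percent of all genes were higher by that much and 2.96 percent lower). The median was then -0.01, against -0.03 over all genes, with 15 members above 0 (43.4 percent of all genes) and 15 below (56.6 percent). With 0 to 2 members at these sizes, the counts are no result about the pathway.

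Stard4, which encodes a protein that carries cholesterol between membranes, had the widest range of the 30 genes over the arrays. In unstimulated tissue its level was -2.22 at 0 min and -3.13 at 5 h, and in stimulated tissue it was -3.04 and -3.84. It was thus highest in the unstimulated 0 min tissue and lowest with EPS at 5 h, and lower with EPS at each time. The EPS difference was -0.82 at 0 min and -0.71 at 5 h, or 1.77-fold and 1.64-fold lower, and these comparisons share no array. Only 0.696 percent of the 18107 genes measured on all 4 arrays were at least 1.5-fold lower with EPS at both times. Among probes printed 10 times with a mean level between -4 and -2, the range that holds Stard4, the 95th percentile of the spot error was 0.16 at 0 min and 0.13 at 5 h. Both values depended on processing: under normexp background correction they were -0.52 at each time, under 1.5-fold, and the 0 min value was -0.47 as the mean of both Stard4 probes, of which the second was dim on all arrays.

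Elovl6, the elongase that extends palmitate-length chains, was also lower with EPS at both times. Its level was -1.23 without EPS at 0 min and -1.82 with it, and at 5 h -0.39 without EPS and -0.76 with it. The differences were -0.59 (1.51-fold) and -0.37 (1.29-fold), and over the alternatives the first ranged from -0.59 to -0.46. The software error of each was 0.21 and 0.20, so the first was 2.89 times its error and the second 1.80 times. Hsd17b7, a ketosteroid reductase of the late sterol steps, was lower by a like amount at both times. Its levels were -1.01 and -1.27 at 0 min and -0.84 and -1.12 at 5 h (no EPS first), a difference of -0.27 each time. That was 1.31 and 1.34 times its software error, and the gene's other probe gave -0.14 each time. In all, 11 of 30 members were higher with EPS at both times (28.5 percent of all genes). A further 10 were lower at both times, most by little (30.3 percent of all genes). Elovl6, Hsd17b7 and Stard4 were below the pooled 95th percentile of the spot error at both times, 3 of 30 beside 5.05 percent of all genes. None lay above it at both times (2.61 percent of all genes).

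The regulators differed by at most 0.23 in either direction with EPS. Srebf1 differed with EPS by 0.17 at 0 min and 0.02 at 5 h, and Srebf2 by 0.08 and 0.15. Scap, the escort protein, had unstimulated levels of 2.31 and 2.53 at 0 min and 5 h and stimulated levels of 2.52 and 2.70, so it was higher with EPS each time, by 0.21 and 0.17. Insig1 differed by -0.01 and 0.08 and Insig2 by 0.03 and -0.23. None of the 5 passed the pooled 95th percentile of the spot error, which 23.1 percent of all genes passed at 0 min and 26.8 percent at 5 h. Against probes of their own level, where it was 0.08 at 0 min and 0.06 at 5 h for levels above 0, Scap was beyond it at both times and Insig2 at 5 h. Srebf2 at 5 h was beyond the 0.09 of its level, and Srebf1 at 0 min just beyond the 0.16 of its level. In units of the software error these differences were 1.02 and 0.84 for Scap, 1.14 for Insig2, 0.71 for Srebf2 and 0.81 for Srebf1. The share of all genes beyond the spot error of their own level is not given here.

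In the mevalonate branch, Mvk, mevalonate kinase, was 0.28 higher with EPS at 0 min and differed by -0.02 at 5 h. Acat2, which joins acetyl-CoA units at the start of the branch, was 0.26 higher at 0 min and 0.27 lower at 5 h. Hmgcs1, the cytosolic HMG-CoA synthase, differed by -0.02 and then by -0.27. The kinase Pmvk, the decarboxylase Mvd, the isomerase Idi1 and farnesyl diphosphate synthase Fdps lay between -0.09 and 0.16 at both times. The median of the 7 genes was 0.13 at 0 min and -0.03 at 5 h.

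In the squalene and sterol branch, the largest EPS difference was that of Tm7sf2, a sterol reductase, at 0 min. Its level was -0.04 directly after EPS, and -0.45, -0.45 and -0.46 on the arrays without EPS at 0 min and 5 h and after EPS at 5 h, so 1 array stood above the other 3. The difference of 0.40 at 0 min was 0.07 on the gene's other probe. Fdft1, squalene synthase and the first enzyme committed to sterols, was 0.12 lower at 0 min and 0.32 lower at 5 h. Sqle (squalene epoxidase), Lss (lanosterol synthase), Cyp51 (lanosterol demethylase), Sc4mol (a sterol methyl oxidase, now named Msmo1), Nsdhl (a sterol dehydrogenase), Ebp (a sterol isomerase), Sc5d (a sterol desaturase) and Dhcr7 (the reductase that yields cholesterol) lay between -0.12 and 0.19 at both times.

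In the fatty acid branch, Fasn, fatty acid synthase, was 0.24 higher with EPS at 0 min and 0.27 higher at 5 h. These values were beyond the 95th percentile of 0.16 and 0.13 for probes of its level and near the pooled one. They were 1.16 and 1.33 times the software error. Acly, the citrate lyase that supplies acetyl-CoA, differed by 0.10 and 0.08, and Acaca, acetyl-CoA carboxylase, by -0.21 and 0.06. The desaturases Scd1 and Scd2 differed by 0.05 and -0.09 at 0 min and by -0.13 and -0.17 at 5 h.

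**Figure D2:**
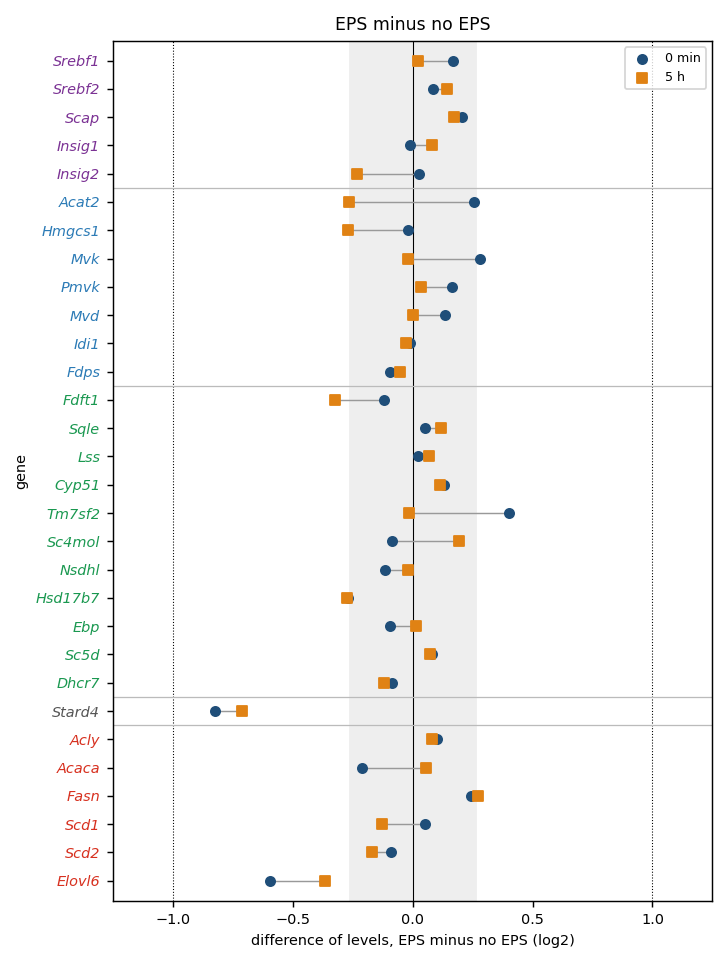
Difference of levels, EPS minus no EPS (log2, horizontal), for each gene (vertical) at 0 min (circles) and 5 h (squares), joined by a line; the grey band spans the larger 95th percentile of the spot error, 0.26, on both sides of 0 and dotted lines mark 2-fold. No gene reaches a dotted line, and Stard4, Elovl6 and, by little, Hsd17b7 lie left of the band at both times.

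The EPS difference at 5 h was also set against that at 0 min. No member differed between the times by 2-fold (0 of 30, against 1.99 percent of 18107 genes) and none by 1.5-fold (7.37 percent of all genes). The median of this difference of differences was -0.02, against -0.04 over all genes. The most displaced members were Acat2 at -0.52 and Tm7sf2 at -0.42, both of which were highest with EPS at 0 min. Stard4 stood at 0.11 and Elovl6 at 0.23, within 1 software error of 0.31 and 0.29.

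A larger share of all genes differed by 2-fold between 5 h and 0 min than with EPS. The medians of the sterol and fatty acid branches stood on opposite sides of 0. With 1 array per group, time in culture cannot be told apart from differences between tissues or arrays. Without EPS, 0 of 30 members differed by 2-fold between 0 min and 5 h (4.7 percent of 18486 genes). With EPS, 1 of 30 did, Elovl6, upward (2.39 percent of 18468 genes were higher and 3.64 percent lower). At 1.5-fold the members were Elovl6 upward (6.6 percent of all genes) and Insig1, Mvk and Stard4 downward (9.38 percent) without EPS, and Sqle and Elovl6 upward (7.9 percent) and Mvk and Stard4 downward (12.5 percent) with EPS. Without EPS, Insig1 and Mvk lost that size under some alternatives, at -0.47 and -0.48 when each array was centred on its median. The shares of members at either size are near those of all genes, so their counts are no result about the pathway. The comparisons without and with EPS share no array.

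Of the 18 sterol enzymes, 15 were lower at 5 h in both comparisons (Tm7sf2 without EPS by less than 0.01), with medians of -0.21 without EPS and -0.27 with it, while 44.3 percent of all genes were lower in both. Of the 6 fatty acid genes, 5 were higher at 5 h in both, with medians of 0.39 and 0.53, while 34.7 percent of all genes were higher in both. Over all genes the median was -0.02 without EPS and -0.08 with it. Centring each array on its median moved all values up by 0.13 without EPS and by 0.18 with EPS, which left 11 and 12 of the 18 sterol enzymes lower, with medians of -0.08 and -0.09, and all 6 fatty acid genes higher. The sterol enzymes that it turned above 0 were Acat2, Hmgcs1, Mvd and Tm7sf2 without EPS and Fdps, Sc4mol and Ebp with EPS. The distance between the branch medians does not depend on such a shift: it was 0.60 without EPS and 0.80 with it, and under the alternative settings it ranged from 0.53 to 0.62 and from 0.67 to 0.80.

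Elovl6 had the largest upward time difference of the 30. From the levels given above it was 0.83 higher at 5 h without EPS (1.78-fold) and 1.06 higher with EPS (2.08-fold). It stood above 97.2 percent of all genes in the first comparison and 98.0 percent in the second. Under normexp background correction the difference with EPS was 0.88, under 2-fold.

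Acly had unstimulated levels of 2.07 at 0 min and 2.63 at 5 h and stimulated levels of 2.17 and 2.72. It was higher at 5 h by 0.56 without EPS and by 0.54 with EPS. Its other probe, of much lower level, gave 0.32 and 0.15. Fasn had levels of -2.75, -2.26, -2.51 and -1.99 in the same order and was higher by 0.48 and 0.52. Acaca, which carboxylates the acetyl-CoA that Acly provides, had levels of 1.52, 1.81, 1.31 and 1.87 and was higher by 0.29 and 0.55. Scd1 was higher by 0.27 and 0.09. Scd2, the desaturase of brain and developing tissues, was the 1 fatty acid gene that was not higher, at -0.04 and -0.12, values that median centring turned above 0.

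Sqle, a rate-limiting enzyme of sterol synthesis, was higher at 5 h in both comparisons, while 8 of the 11 genes of its branch were lower in both. In unstimulated tissue its level was 2.19 at 0 min and 2.74 at 5 h, and in stimulated tissue it was 2.25 and 2.86. The time difference was 0.54 without EPS and 0.61 with EPS, 1.45-fold and 1.53-fold. Cyp51 and Hsd17b7 were the other sterol enzymes higher at 5 h, by 0.22 and 0.21 for Cyp51 and by 0.16 and 0.16 for Hsd17b7. Both lay beyond the 95th percentile of the spot error for probes of their level, 0.10 without EPS and 0.08 with it. In units of the larger software error they stood at only 1.07 and 1.01 for Cyp51 and 0.80 and 0.77 for Hsd17b7.

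Mvk stood lowest of the sterol enzymes in both time comparisons. It had unstimulated levels of 1.34 at 0 min and 0.73 at 5 h and stimulated levels of 1.62 and 0.71, lower at 5 h by 0.62 and by 0.92, or 1.53-fold and 1.89-fold. Its second probe gave -0.45 and -0.70. Lss was lower by 0.48 and 0.44, Idi1 by 0.31 and 0.33 and Sc5d by 0.28 and 0.29, and these 4 genes were the sterol enzymes below the pooled 95th percentile of the spot error in both comparisons, 4 of 18 beside 21.5 percent of all genes. Sqle alone lay above it in both, 1 of 18 beside 16.5 percent.

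The remaining sterol enzymes were lower by less in at least 1 comparison. Acat2 was at -0.02 without EPS and -0.54 with EPS, Hmgcs1 at -0.09 and -0.34, and Tm7sf2 near 0 and at -0.42, so for these 3 the difference was larger in stimulated tissue; whether it differed between the conditions was not tested. Sc4mol was the reverse, at -0.38 and -0.10. Fdft1 was at -0.24 and -0.45, but as the mean of both its probes at 0.31 and -0.16, so its direction without EPS turned; its second probe was well above background on 2 arrays only, and with it the EPS difference at 5 h was -0.60. Nsdhl was at -0.28 and -0.19, Ebp at -0.26 and -0.15, Fdps at -0.21 and -0.17 and Dhcr7 at -0.20 and -0.24. Pmvk stood at -0.16 and -0.29 and Mvd at -0.12 and -0.26.

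Among the regulators, Insig1, itself a target of the SREBP factors, had unstimulated levels of -2.18 at 0 min and -2.79 at 5 h and stimulated levels of -2.19 and -2.70. It was lower at 5 h by 0.61 and 0.51. Srebf1, whose product drives mainly fatty acid genes, was lower by 0.33 and 0.48, or 1.59 and 2.31 times its software error. Insig2 was lower by 0.18 and 0.44 and Scap higher by 0.22 and 0.18. Srebf2, whose product drives mainly sterol genes, had levels from -1.23 to -1.08 on the 4 arrays and time differences of -0.04 and 0.02. Its other probe, of much lower level, gave -0.18 and 0.30. Stard4 was lower by 0.91 without EPS and 0.80 with EPS, with the levels given above; without EPS it was -0.63 under normexp and -0.62 as the mean of its probes.

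**Figure D3:**
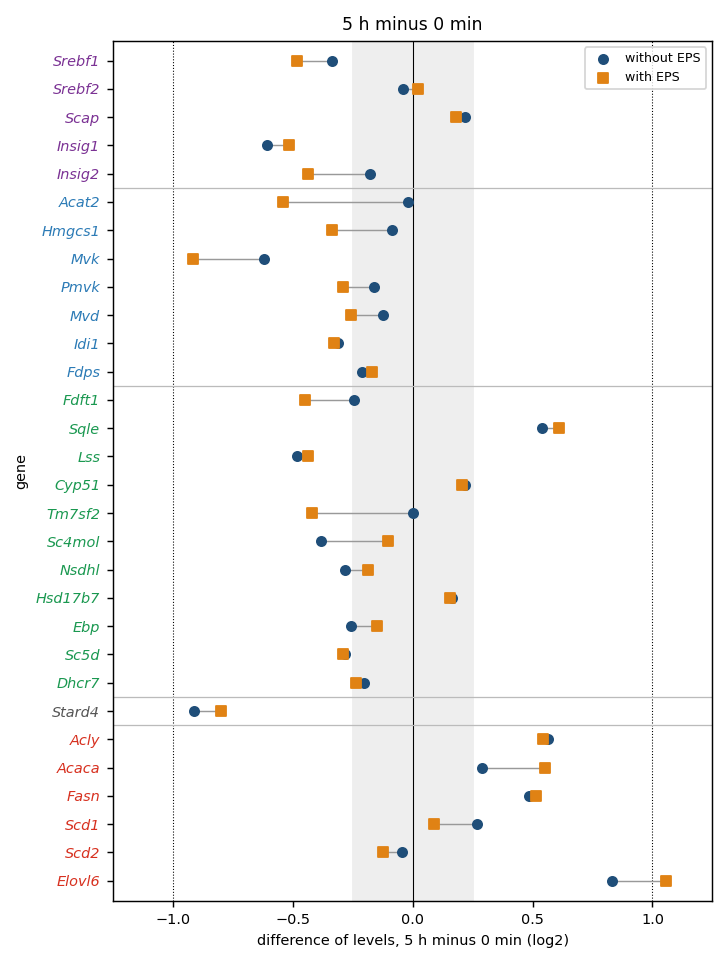
Difference of levels, 5 h minus 0 min (log2, horizontal), for each gene (vertical) without EPS (circles) and with EPS (squares), joined by a line; the grey band spans the larger 95th percentile of the spot error, 0.25, on both sides of 0 and dotted lines mark 2-fold. Most sterol genes lie left of 0 and 5 of 6 fatty acid genes right of it, with Sqle, Cyp51 and Hsd17b7 also right of 0.

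**Figure D4:**
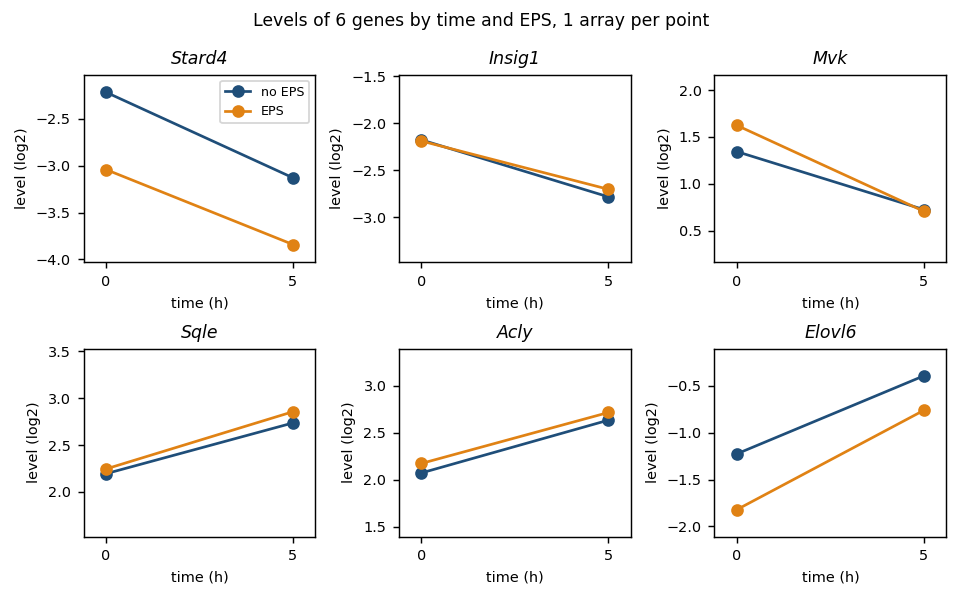
Level (log2, vertical) of 6 genes at 0 and 5 h (horizontal) without EPS and with EPS; each point is 1 array, and each panel spans the same range of 2 log2 units around the gene's own levels. The lines for Stard4 and Elovl6 are apart at both times, while those for Insig1, Sqle and Acly nearly coincide.

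Genes with several probes gave a check within the arrays. Of 9 members with more than 1 probe well above background on all arrays, 9 had probes of 1 sign in each time comparison, against 7 for EPS at 0 min (all but Insig2 and Srebf2) and 6 for EPS at 5 h (all but Acaca, Acly and Nsdhl). The spread between probes of a gene had a median of 0.08 to 0.13 and was largest for Acaca, at 0.77 with EPS at 0 min. That value came from a probe near background, at levels of -5.22 without EPS and -6.10 with it. A pair of Acaca probes lies over the same stretch of chromosome 11 on build mm9, one at 84215093 to 84215152 and the other at 84215094 to 84215153. Their last 30 bases are shown because they let the same gene be read from nearly the same sequence; the Elovl6 probe (chromosome 3, 129341248 to 129341307, mm9) is shown with them as the one that carries the largest time difference.
Acaca, probe A_55_P2019058: tgttgaaataaacctccacatttgtagaag
Acaca, probe A_55_P2084706: gttgaaataaacctccacatttgtaaaaaa
Elovl6, probe A_51_P463440: aattcactatcaagcctcacagcgaaatca
The Acaca pair gave time differences of 0.29 and 0.41 without EPS and of 0.55 and 0.56 with EPS, and EPS differences of -0.21 and -0.11 at 0 min and of 0.06 and 0.03 at 5 h. The pair reads nearly the same sequence, so it is a narrow check. The other Acaca probes, at levels from -6.10 to -3.79, gave time differences of 0.19 and 0.08 without EPS and of 0.76 and 0.25 with EPS. No annotation of build mm9 was used here, so the exon or untranslated region under a probe is not stated.

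Promoters of the members were read from the RefSeq windows of build GRCm38.p6, which reach from 250 bases before to 50 after each annotated start; 24 of 30 members matched, and Fdps, Fdft1, Sqle, Stard4, Scd1 and Scd2 did not. The motifs were chosen after the values had been seen and searched on both strands, and compared genes by whether any of their windows held a match. CCAAT, the box bound by NF-Y, a partner of SREBP at sterol genes, was present in 20 of 24 members, against 41.1 percent of 27025 genes. By role, it was present in 14 of 15 sterol enzymes (5 of 6 in the mevalonate branch and 9 of 9 in the squalene and sterol branch), in 4 of 5 regulators and in 2 of 4 fatty acid genes. GGGCGG, the GC box of Sp1, was also present in 20 of 24 members, against 38.2 percent of genes, and in 1 of 4 fatty acid genes. CANNTG, the E-box, was present in 18 of 24 members, against 75 percent of genes. TCACNCCAC, a strict form of the sterol regulatory element, was present in 1 member, Hmgcs1, against 1.44 percent of genes, and its shorter core CACNCCA, which lies inside it, in 6 of 24 against 20.6 percent. These matches describe letters in the windows and not bound sites. The 27025 genes were not restricted to those well above background here, as all the members were. Whether the shares differ among measured genes was not tested.

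The 250 bases before the start are shown for Hmgcs1, which holds the strict sterol element, for Mvk, the most displaced sterol enzyme, and for Acly, Fasn and Elovl6 from the branch that stood higher at 5 h. Capitals mark CCAAT on either strand (ATTGG where it lies on the other strand) and, in Hmgcs1, also the core CACCCCA; each sequence is on build GRCm38.p6 and written along its gene's strand. The strict element of Hmgcs1, TCACCCCAC, lies at chr13:119690214-119690222.
Hmgcs1, chr13:119690101-119690350, plus strand: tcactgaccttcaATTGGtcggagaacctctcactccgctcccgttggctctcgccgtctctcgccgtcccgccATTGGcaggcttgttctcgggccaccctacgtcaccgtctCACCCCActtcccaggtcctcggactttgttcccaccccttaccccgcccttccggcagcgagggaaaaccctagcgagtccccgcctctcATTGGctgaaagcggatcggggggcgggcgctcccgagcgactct
Mvk, chr5:114444019-114444268, plus strand: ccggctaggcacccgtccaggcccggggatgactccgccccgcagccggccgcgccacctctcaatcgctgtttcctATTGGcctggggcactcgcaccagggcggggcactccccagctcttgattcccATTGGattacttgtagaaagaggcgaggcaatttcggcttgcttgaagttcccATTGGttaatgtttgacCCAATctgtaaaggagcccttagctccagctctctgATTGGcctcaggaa
Acly, chr11:100528001-100528250, minus strand: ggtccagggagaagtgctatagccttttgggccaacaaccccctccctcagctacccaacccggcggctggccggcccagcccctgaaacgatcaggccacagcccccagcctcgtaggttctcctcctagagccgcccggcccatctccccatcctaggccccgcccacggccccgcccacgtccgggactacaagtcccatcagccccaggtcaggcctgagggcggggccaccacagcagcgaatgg
Fasn, chr11:120824548-120824797, minus strand: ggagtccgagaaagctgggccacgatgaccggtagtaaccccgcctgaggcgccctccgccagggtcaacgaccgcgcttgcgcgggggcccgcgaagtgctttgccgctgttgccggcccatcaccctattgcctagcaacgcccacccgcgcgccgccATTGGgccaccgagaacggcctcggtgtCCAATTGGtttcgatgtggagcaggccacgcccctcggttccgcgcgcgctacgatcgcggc
Elovl6, chr3:129532136-129532385, plus strand: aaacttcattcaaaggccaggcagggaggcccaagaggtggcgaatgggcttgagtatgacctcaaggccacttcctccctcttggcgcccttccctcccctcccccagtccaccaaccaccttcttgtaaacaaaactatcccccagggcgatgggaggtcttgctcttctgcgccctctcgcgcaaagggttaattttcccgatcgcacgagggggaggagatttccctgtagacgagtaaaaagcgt
Before its start Mvk held 5 CCAAT matches, Hmgcs1 and Fasn 3 each (in Fasn, a pair overlaps), and Acly and Elovl6 none. Acly held 4 GC boxes there and Elovl6 none of the motifs searched.

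Other genes around the pathway were followed in 4 further lists of 41 genes, of which 38 were measured at 0 min and 37 in the other comparisons. With EPS at 0 min, 0 of 38 reached 2-fold and the median was 0.06. The highest were Ch25h, which makes the oxysterol that holds SREBP back, at 0.52 and Acacb, the mitochondrial acetyl-CoA carboxylase, at 0.45; the lowest were Lpin1, a phosphatidate phosphatase, at -0.33 and the sterol exporter Abcg1 at -0.23. With EPS at 5 h, 1 of 37 was 2-fold higher and 0 lower (0.69 percent and 0.523 percent of all genes), with a median of 0.01. That gene was Ch25h, with unstimulated levels of 0.75 at 0 min and 1.47 at 5 h and stimulated levels of 1.27 and 2.56. It was 1.09 higher with EPS at 5 h and 1.29 higher at 5 h than at 0 min with EPS, where it was again the 1 gene of 37 at 2-fold.

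Without EPS, 0 of 37 differed by 2-fold between the times and the median was 0.04. The highest were Ch25h at 0.72 and Pdss1, which makes the side chain of coenzyme Q, at 0.63. The lowest were Lpin1 at -0.57 and Erlin2, of the SREBP processing list, at -0.404, with the lipoprotein receptor Vldlr next at -0.403. The 6 genes of SREBP processing, among them the proteases Mbtps1 and Mbtps2, lay between -0.21 and 0.22 in the EPS comparisons and between -0.40 and 0.40 in the time comparisons. Of 8 other isoprenoid and sterol genes, Aacs, which makes acetoacetyl-CoA, was higher at 5 h by 0.46 without EPS and 0.49 with EPS. Their list had time medians of 0.28 and 0.22, so it stood on the other side from the 18 sterol enzymes. Of the other fatty acid and glycerolipid genes, 15 of 17 were measured, with time medians of -0.02 and -0.15; Me1, the malic enzyme that supplies NADPH, was higher by 0.56 and 0.32, and Acss2, which makes acetyl-CoA from acetate, stood at -0.09 and -0.65.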

How the data were processed

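Values were the spot intensities the authors deposited, made per the file headers with Agilent Feature Extraction 10.7.3.1, which subtracted background, detrended each array and gave undetected spots a substitute value. The deposited value table held the same intensities on all 44397 spots of each array, within 0.1 percent. Per the labels' protocols, RNA was extracted from engineered muscle and copied with oligo-dT primers. On each array 43020 spots were not controls, and 112 to 141 of them carried outlier flags and were left out. None was saturated.

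Repeat spots were averaged as log2 values, and the probe with the highest mean level stood for its gene. Of 39429 probes, 26055 were named through RefSeq accessions (GRCm38.p6); members kept the names of the array files. A gene was compared where it was well above background on the arrays compared. Sizes of 2-fold and 1.5-fold took the place of a test. Members and lists were chosen with earlier results of these data known. Every member is reported; genes of the other lists were named at 2-fold, or otherwise the most displaced in each direction, and further examples were chosen after their values were seen. The remaining genes of those lists enter only counts and medians. Differences were checked on simulated data. Alternatives were normexp (offset 50, limma 3.58.1) and quantile normalization, median centring, other filters, the mean of probes, outlier flags kept and the value table. Python 3.11.15 and R 4.3.3 were used.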

Additional observations from a re-analysis of the deposited data

How the results depend on the processing

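At 1.5-fold in place of 2-fold, the members counted were 2 lower with EPS at 0 min, 1 lower with EPS at 5 h, 1 higher and 3 lower between the times without EPS, and 2 higher and 2 lower with EPS. Median centring moved the median over the 30 members to 0.0784 for EPS at 5 h, to -0.0087 between the times without EPS and to -0.0299 with EPS. Under normexp, 0 members were 2-fold higher between the times with EPS. Otherwise no member count at 2-fold changed, and the median over the 30 moved by less than the median spot error. Of 150 single differences, 125 kept their sign under median centring, 141 under normexp, 142 under quantile normalization and 144 with the mean of probes; all 150 kept it with other filters, with outlier flags kept and with the value table. Over all genes, normexp gave 42 higher and 29 lower for EPS at 0 min against 102 and 147, and 43 and 31 for EPS at 5 h against 128 and 97, 185 and 226 between the times without EPS against 322 and 547, 256 and 343 with EPS against 442 and 673, and 34 and 75 for the difference of EPS differences against 181 and 180. With no filter on dim probes these counts were 1074 and 1172, 1085 and 1445, 1234 and 1877, 1396 and 2541, and 1861 and 2117. Median centring gave 161 higher and 74 lower for EPS at 5 h, 470 and 388 between the times without EPS, and 736 and 414 with EPS, where quantile normalization gave 529 and 517. The cause of these shifts was not tested. No paired analysis was possible because each group had 1 array, and no array could be left out. Spot error was largest for dim probes, with a 95th percentile of 0.37 to 0.40 under a level of -4 in the EPS and time comparisons, where no member's mean level lay.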
